A study of Homo sapiens with 4 samples.

Results

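The Hippo pathway is represented here by 10 genes: the YAP/TEAD target genes CCN1, CCN2, ANKRD1 and AMOTL2, the other angiomotin genes AMOTL1 and AMOT, and the regulators LATS2, YAP1, WWTR1 and TEAD1. They were found by gene symbol among the 20226 genes of the tables, 2 of them under an older symbol (CYR61 for CCN1, CTGF for CCN2), and all 10 were listed. The study sequenced RNA to ask how expression differs when NUP210, a membrane-spanning protein of the nuclear pore complex, is knocked down in Huh7, an established human hepatocellular carcinoma line. The groups were shNUP210 cells, which carried a short hairpin RNA against NUP210 (2 libraries), and shCon cells, a control hairpin by title that the labels give the genotype wild type (2 libraries). Both groups were labelled untreated. The labels name no clone, vector or time after knockdown and do not state that replicates are separate cultures. The p-values therefore reflect the variation among 4 libraries, part or all of which may be technical.

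In the Hippo pathway a kinase cassette ending in LATS1 and LATS2 phosphorylates the coactivators YAP (YAP1) and TAZ (WWTR1), which keeps them out of the nucleus or marks them for degradation. Unphosphorylated YAP and TAZ enter the nucleus, bind TEAD transcription factors and induce genes such as CCN1, CCN2 and ANKRD1, and they also induce their own inhibitors, LATS2 and AMOTL2. The pathway limits liver size, and active YAP drives liver overgrowth and hepatocellular carcinoma in mice. Since YAP and TAZ are controlled largely by phosphorylation and location, RNA levels give the amount of message for each component and not its activity.

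TEAD factors bind DNA at a short element whose core is GGAATG. It was looked for on both strands of the members' promoter windows, and on the opposite strand it reads CATTCC. These windows, from RefSeq on GRCh38.p14, run from 250 bases before to 50 bases after an annotated start. They matched 8 of the 10 members, AMOTL2 and WWTR1 with 2 starts each, and were not matched for CCN1 and TEAD1. The stretches that hold the matches before a start are printed 5′ to 3′ on the strand of the gene, with the core element in capitals, to show where the matches lie in 3 of the 4 targets and in YAP1. A printed stretch leaves out bases that GENCODE release 29 places in an exon of the gene, apart from 30-base windows around a match.
CCN2, chr6:131951374-131951622, minus strand: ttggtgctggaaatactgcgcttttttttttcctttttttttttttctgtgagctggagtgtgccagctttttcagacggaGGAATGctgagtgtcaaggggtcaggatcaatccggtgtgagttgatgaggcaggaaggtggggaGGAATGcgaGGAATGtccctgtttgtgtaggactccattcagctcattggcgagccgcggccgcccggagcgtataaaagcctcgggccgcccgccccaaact
ANKRD1, chr10:90921277-90921337, minus strand: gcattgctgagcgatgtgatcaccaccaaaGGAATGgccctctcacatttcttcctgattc
ANKRD1, chr10:90921198-90921227, minus strand: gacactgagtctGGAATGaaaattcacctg
AMOTL2, start 2, chr3:134374499-134374528, minus strand: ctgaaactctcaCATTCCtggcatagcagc
YAP1, chr11:102110197-102110446, plus strand: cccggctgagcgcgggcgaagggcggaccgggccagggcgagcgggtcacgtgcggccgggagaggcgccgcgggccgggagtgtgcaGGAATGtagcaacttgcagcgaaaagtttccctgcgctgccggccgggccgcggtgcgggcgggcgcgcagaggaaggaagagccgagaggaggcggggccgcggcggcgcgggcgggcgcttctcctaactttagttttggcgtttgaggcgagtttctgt

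The CCN2 window held 3 matches, all on the strand of the gene, at bases -169 to -164, -104 to -99 and -95 to -90 from the start. The ANKRD1 window held 2 matches on that strand, at -220 to -215 and -128 to -123. Start 2 of AMOTL2 had 1 match on the other strand at -69 to -64, and YAP1 had 1 at -162 to -157. The second ANKRD1 match (-128 to -123) and the AMOTL2 match lie in bases that GENCODE release 29 places in an exon of the gene. LATS2 had its single match just after the start, at bases 10 to 15, and no match was found in the windows of AMOTL1, AMOT, WWTR1 or start 1 of AMOTL2. Among all 35116 RefSeq windows, 11.9% held at least 1 match in the 250 bases before the start, 0.94% held 2 or more and 0.0826% (29 windows) held 3 or more. The AP-1 element TGANTCA, a motif of the factors that often share enhancers with TEAD, occurred in the ANKRD1 window alone of the 8 members, at -195 to -189, against 6.57% of all windows in the 250 bases before the start. These are matches of letters, not evidence of binding, and most TEAD-bound elements known in human cells lie in enhancers far from the start.

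**Figure D1:**
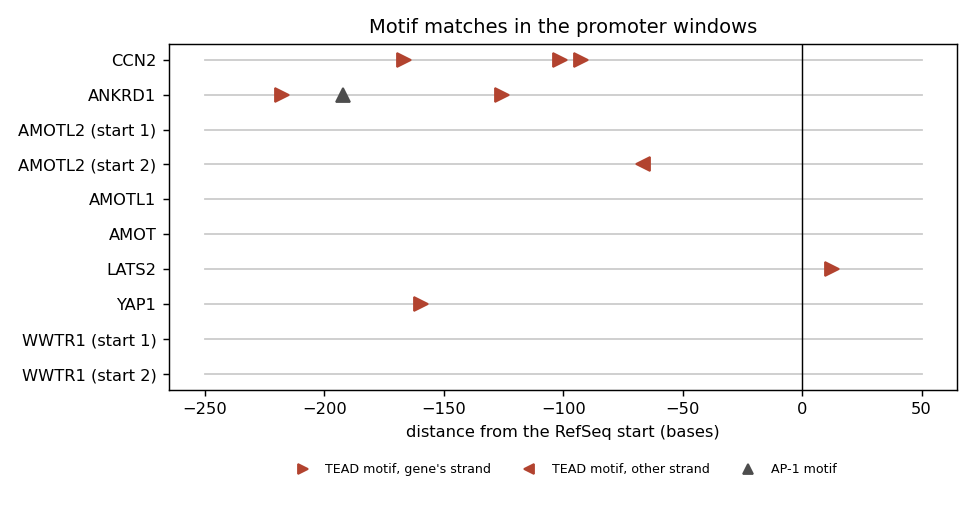
Matches of the TEAD core element (red arrowheads, pointing right on the strand of the gene and left on the other strand) and of the AP-1 element (grey triangle) along the promoter windows of 8 members, by distance from the RefSeq start in bases. CCN2 carries 3 TEAD matches and ANKRD1 carries 2, while AMOTL1, AMOT, both WWTR1 starts and start 1 of AMOTL2 carry no match of either motif.

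The values are TPM, a share of the library's transcripts after division by transcript length. All 8 hepatocyte markers were listed, and they summed to 14118 and 14242 TPM in the shNUP210 libraries and 18846 and 18339 TPM in the shCon libraries. ALB was close to level between the groups (log2 fold change 0.01, limma adjusted p = 0.949), while APOA1, SERPINA1 and TF fell, with log2 fold changes of -1.31, -0.73 and -0.78 (limma adjusted p 0.00253 to 0.0133). These are 3 of the 8 markers, where 1.07% of all genes tested were called lower. The list went both ways: 5 of the 8 were above 0, among them TTR at 0.56 (limma adjusted p = 0.0501), HNF4A at 0.3 and AFP at 0.11, and its median was 0.02. Of 13 markers of leukocytes, endothelium and fibroblasts, 5 were listed (CD14, CD68, COL1A1, PDGFRB and LUM), none of them at 0, and the other 8 were not analysed here. The fibroblast markers listed (3 of 5) summed to 35.6 and 18 TPM in shNUP210 and 10.3 and 15.0 TPM in shCon, and the leukocyte markers listed (2 of 4) to 21.3 and 6.3 TPM in shNUP210 and 35.2 and 27.4 TPM in shCon. Their part in the results on the Hippo genes was not tested. NUP210 itself was at 10.1 and 9.85 TPM in shNUP210 and 32.8 and 27.3 TPM in shCon (log2 fold change -1.49, SE 0.24, limma adjusted p = 0.0432, and 0.162 to 0.167 when any library was left out). TPM keeps no read depth. The worth of 1 fragment was taken as the median of low values of single-transcript genes, scaled to a 1 kb transcript, inside a fixed range. It came to 0.54 to 0.68 TPM in the 4 libraries. That result is largely set by the range chosen, so fragment numbers given below are rough estimates.

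The 4 YAP/TEAD targets rose after knockdown of NUP210, by 2.43 to 5.34 times in mean TPM, and the 4 regulators did not pass the test. The test was limma on log2(TPM + 1), fitted over the 10140 genes that reached 5 TPM in 2 or more libraries. A gene was called at a Benjamini-Hochberg adjusted p under 0.05. Of the 10 members, 9 could be tested, and 4 were called higher and 0 lower (0 lower also at an unadjusted p under 0.05). Over all genes tested, 2.86% were called, 1.79% higher and 1.07% lower, and 24.3% had an unadjusted p under 0.05 in either direction, against 6 of the 9 members. ANKRD1 and AMOT passed the filter only through the shNUP210 libraries, as did 501 genes in all, so a count over the members tested is a description and not support. The genes and their split into targets and regulators had been chosen with earlier results of these data known.

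CCN1 (ENSG00000142871, GRCh38 chromosome 1, 85580761 to 85583962, plus strand) encodes a secreted protein of the matrix that binds integrins and is a standard readout of YAP activity. Its level was 66.0 and 62.1 TPM in the shNUP210 libraries and 9.25 and 15.8 TPM in the shCon libraries. Both knockdown libraries lay far above both controls, and the controls themselves differed by more than the knockdown libraries did. The means were 64.1 ± 2.78 and 12.5 ± 4.62 TPM in shNUP210 and shCon (SD, n = 2 each), a 5.12-fold difference of means (log2 fold change 2.31, SE 0.28, limma adjusted p = 0.0269). In the order of all 10140 log2 fold changes, 62 genes (0.611%) stood above CCN1. In a bulk library a change of RNA per cell and a change in the share of cells that express a gene cannot be told apart.

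CCN2 (ENSG00000118523, chromosome 6, 131948176 to 131951373, minus strand) encodes connective tissue growth factor, a fibrosis-associated relative of CCN1 that TGF-beta also induces. It was the most abundant member in every library, at 102.2 and 98.3 TPM in shNUP210 and 43.6 and 38.9 TPM in shCon. The groups did not overlap and each was tight. The fold of means was 2.43, the smallest of the 4 targets (log2 fold change 1.26, SE 0.15, limma adjusted p = 0.0247). CCN2 has a single listed transcript of 2339 bases, so its values correspond to an estimated 380 and 337 fragments in shNUP210 and 190 and 167 in shCon. The ratio of CCN2 to CCN1 within a library was 1.55 and 1.58 in shNUP210 against 4.71 and 2.46 in shCon, so the 2 secreted proteins' messages were closer in level after knockdown. Of the other CCN genes, CCN6 was at 4.91 and 4.93 TPM in shNUP210 and 2.48 and 2.93 TPM in shCon, and CCN3 was at 1.99 and 0.52 TPM in shNUP210 but is listed at 0 in each shCon library. Neither reached the level needed for the test.

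ANKRD1 (ENSG00000148677, chromosome 10, 90912096 to 90921276, minus strand) encodes a nuclear and sarcomeric ankyrin repeat protein best known from stressed heart muscle. Its level was 19.2 and 20.9 TPM in shNUP210 and 3.73 and 3.78 TPM in shCon. This was the largest fold of means among the members, at 5.34 (log2 fold change 2.15, SE 0.3, limma adjusted p = 0.034). Its 1 listed transcript of 1979 bases gives an estimated 60 and 61 fragments in shNUP210 and 14 in each shCon library. If that estimate holds, counting error is larger than the difference between the controls. The relatives of ANKRD1 in muscle stayed low: ANKRD23 was at 2.75 and 6.24 TPM in shNUP210 and 2.96 and 4.03 TPM in shCon, and ANKRD2 was listed at 0 in 3 of the 4 libraries.

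AMOTL2 (ENSG00000114019, chromosome 3, 134355874 to 134375479, minus strand) encodes a junctional scaffold that binds YAP and promotes its phosphorylation by LATS, and is itself a TEAD target. It was at 82.3 and 66.7 TPM in shNUP210 and 23.5 and 17.9 TPM in shCon. The knockdown libraries were both above the controls. They differed from each other by more TPM than the controls did, but by a smaller ratio. The fold of means was 3.59 (log2 fold change 1.8, SE 0.22, limma adjusted p = 0.0263). The exons of AMOTL2 share 187 bases with RPL39P5, a transcribed pseudogene on the same strand. RPL39P5 is not among the genes listed, and its part in the AMOTL2 difference was not tested. The calls of all 4 targets rest on 2 libraries a group: with any library left out, adjusted p was 0.0803 to 0.15 for CCN1, 0.12 to 0.15 for CCN2, 0.13 to 0.179 for ANKRD1 and 0.114 to 0.15 for AMOTL2. They also ended with a filter of 1 TPM in 2 libraries (adjusted p 0.0507 to 0.0619), with no filter (0.103 to 0.121) and without the mean-variance trend of limma (0.0768 to 0.106), and that of ANKRD1 ended with quantile normalization (0.0513).

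**Figure D2:**
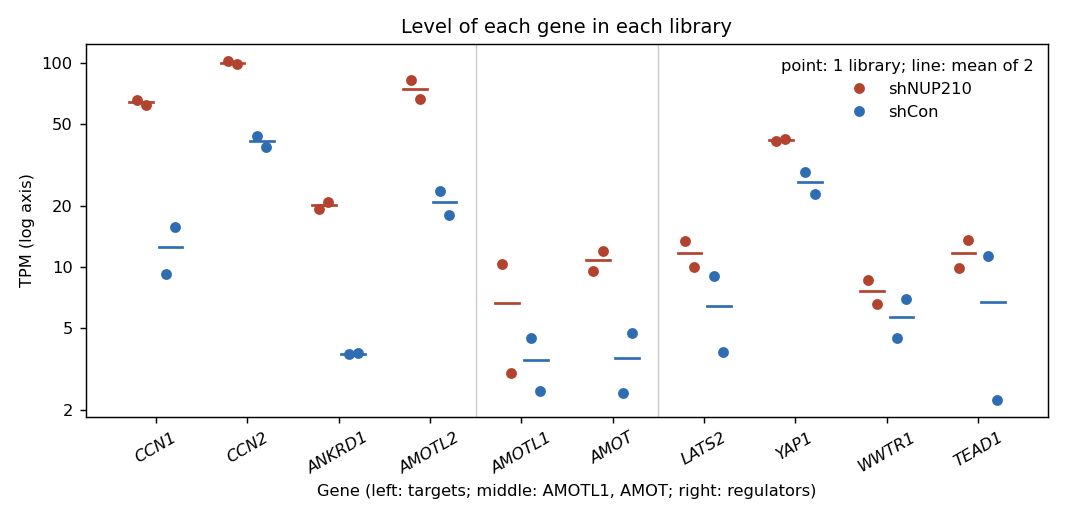
TPM of the 10 genes in each library on a log axis, with the 2 shNUP210 libraries in red left of the 2 shCon libraries in blue and a line at each mean. The groups stand apart for the 4 targets, AMOT, LATS2 and YAP1 and overlap for AMOTL1, WWTR1 and TEAD1, where single libraries such as shCon replicate 2 of TEAD1 at 2.23 TPM set the mean.

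AMOT and AMOTL1, the other members of the angiomotin family, bind YAP and TAZ at tight junctions and hold them in the cytoplasm. AMOT (chromosome X, 112774503 to 112840815, minus strand) was at 9.51 and 12.02 TPM in shNUP210 and 2.42 and 4.76 TPM in shCon. The groups did not overlap, but the gene was not called (log2 fold change 1.4, SE 0.42, limma adjusted p = 0.134). AMOTL1 (chromosome 11, 94706431 to 94876753, plus strand) was at 10.3 and 3.02 TPM in shNUP210 and 4.5 and 2.48 TPM in shCon, and the groups overlapped. It reached 5 TPM in 1 library and so was not tested, and with a filter of 1 TPM in 2 libraries its log2 fold change was 0.62 (SE 0.62, limma adjusted p = 0.616).

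Summed over the 3 angiomotin genes, the level was 102.1 and 81.7 TPM in shNUP210 and 30.5 and 25.2 TPM in shCon. AMOTL2 made up 80.6 and 81.6% of that sum in shNUP210 and 77.3 and 71.2% in shCon, so the family's higher level after knockdown was mostly AMOTL2. AMOT made up 9.32 and 14.7% in shNUP210 and 7.95 and 18.9% in shCon, and those ranges overlapped.

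LATS2 (chromosome 13, 20973032 to 21061547, minus strand), the kinase that phosphorylates YAP and TAZ, was at 13.5 and 9.97 TPM in shNUP210 and 9.06 and 3.85 TPM in shCon. The groups did not overlap, but the gap between them was smaller than the difference between the libraries of either group. It was not called (log2 fold change 0.85, SE 0.45, limma adjusted p = 0.301), and the value hung on the controls: it was 1.38 without shCon replicate 1 and 0.32 without shCon replicate 2.

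YAP1 (chromosome 11, 102110461 to 102233423, plus strand) was at 41.3 and 42.3 TPM in shNUP210 and 29.2 and 22.7 TPM in shCon. Both knockdown libraries were higher, by 1.61 times in the means, but the gene was not called (log2 fold change 0.68, SE 0.2, limma adjusted p = 0.131). Its exons share 628 bases with an antisense gene, AP000942.2 (ENSG00000254422), which was at 156.2 and 177.3 TPM in shNUP210 and 90.1 and 122.8 TPM in shCon. No source used here says that reads were counted by strand, so reads of this pair cannot be told apart where they overlap.

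WWTR1, the gene of TAZ (chromosome 3, 149517235 to 149736714, minus strand), was at 8.62 and 6.62 TPM in shNUP210 and 4.48 and 6.96 TPM in shCon, with overlapping groups. Its log2 fold change of 0.37 (SE 0.39, limma adjusted p = 0.587) was the smallest of the members tested and 0.14 above the median of all genes. YAP1 made up 82.7 and 86.5% of the summed YAP1 and WWTR1 level in shNUP210 and 86.7 and 76.6% in shCon, so YAP1 was the more abundant coactivator message in every library. WWTR1 shares 795 exon bases with WWTR1-AS1, AMOTL1 shares 496 with AP002383.2 and CCN2 shares 195 with AL133346.1. The antisense partner of CCN2 was at 11.8 and 0 TPM in shNUP210 and 1.97 and 0 TPM in shCon, against 38.9 to 102.2 TPM for CCN2. AP002383.2 was at 21.4 and 21.2 TPM in shNUP210 and 16.6 and 18.4 TPM in shCon, above AMOTL1 in every library. WWTR1-AS1 was at 1.52 and 2.71 TPM in shNUP210 and 4.45 and 1.96 TPM in shCon, against 4.48 to 8.62 TPM for WWTR1.

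TEAD1 (chromosome 11, 12674591 to 12944483, plus strand), a DNA-binding partner of YAP and TAZ, was at 9.85 and 13.5 TPM in shNUP210 and 11.3 and 2.23 TPM in shCon. The controls differed more from each other than the group means did, and the groups overlapped (log2 fold change 0.99, SE 0.66, limma adjusted p = 0.398). Without shCon replicate 1 the log2 fold change was 1.96, and without shCon replicate 2 it was 0.03. The 4 TEAD paralogs together were at 92.8 and 105.1 TPM in shNUP210 and 90.6 and 73.5 TPM in shCon. TEAD2 was the most abundant in every library, with 43.9 and 45.2% of the sum in shNUP210 and 48.2 and 58.5% in shCon, while TEAD1 held 10.6 and 12.9% in shNUP210 and 12.5 and 3.03% in shCon. The TEAD2 level was 40.8 and 47.5 TPM in shNUP210 and 43.7 and 43.0 TPM in shCon (log2 fold change 0.02, SE 0.17, limma adjusted p = 0.957).

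**Figure D3:**
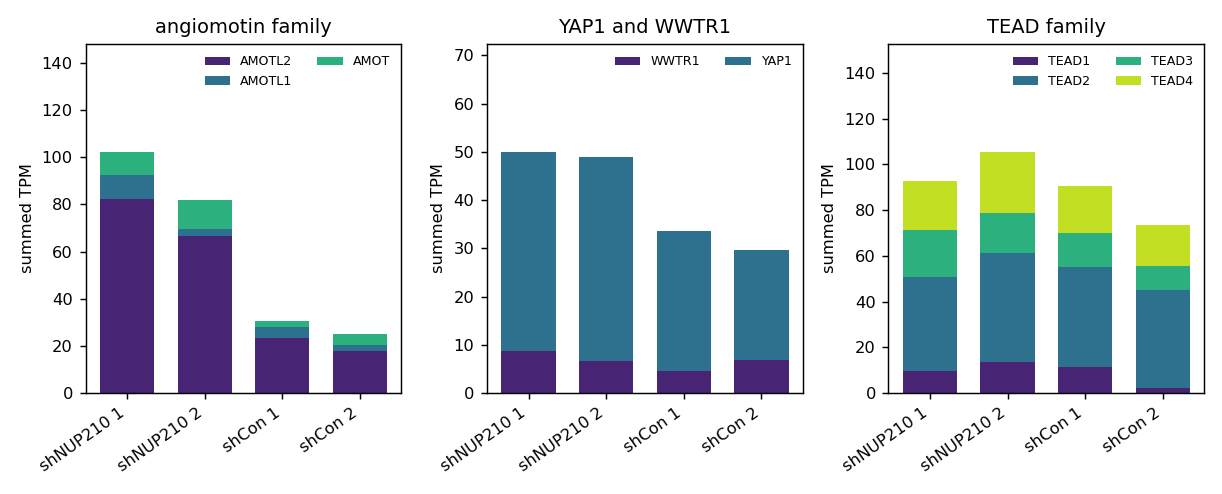
Summed TPM of the angiomotin genes, of YAP1 with WWTR1 and of the 4 TEAD paralogs, stacked by gene, with the shNUP210 libraries left of the shCon libraries. The angiomotin sum was 81.7 TPM or more in shNUP210 and 30.5 TPM or less in shCon, mostly AMOTL2, while TEAD2 was the largest TEAD share in all 4 libraries.

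The targets and the regulators are set side by side here without a test of their difference. The log2 fold changes of the 4 targets ran between 1.26 and 2.31, with a median of 1.97, and those of the 4 regulators between 0.37 and 0.99, with a median of 0.76. Without shCon replicate 1, TEAD1 (1.96) and LATS2 (1.38) lay inside the range that the targets had over all libraries. The median of all 10140 genes was 0.23. The mean log2(TPM + 1) of the targets exceeded that of the regulators by 1.88 and 1.87 in the shNUP210 libraries and by 0.34 and 1.09 in the shCon libraries. The gap between the sets was wider in both knockdown libraries, by 1.16 in the group means. Its spread in shCon (SD 0.53, n = 2) was larger than in shNUP210 (SD 0.01, n = 2). It was 0.78 wider without shCon replicate 1 and 1.53 wider without shCon replicate 2. With AMOT and AMOTL1 counted as targets, a choice made after the data were seen, the gap widened by 0.87. No p-value is given for this gap because the genes were chosen with results known.

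Ratios within a library are not changed by a scaling factor applied to the whole library, though quantile normalization can change them. CCN1 stood at 1.6 and 1.47 times the YAP1 level in shNUP210 and at 0.317 and 0.694 times in shCon. For ANKRD1 the ratio to YAP1 was 0.465 and 0.494 in shNUP210 and 0.128 and 0.166 in shCon, and for AMOTL2 it was 1.99 and 1.58 in shNUP210 and 0.807 and 0.788 in shCon. The CCN2 ratio was 2.48 and 2.33 in shNUP210 and 1.5 and 1.71 in shCon. For each target the 2 knockdown libraries had the higher ratio, so these values differed more between groups than the value listed for YAP1. That value may include reads of the antisense gene AP000942.2 where the exons overlap. The part of such reads in the ratios was not tested.

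Scaling of the libraries shifts every fold change, since the median of all genes was 0.23 above 0 in TPM as deposited and -0.018 after trimmed-mean scaling. The 9 tested members all had a log2 fold change above 0 as deposited, as did 68.9% of all genes. All 9 were also above the deposited median of 0.23, which by definition splits the genes evenly. Across the 4 other scalings the log2 fold change was 2.05 to 2.11 for CCN1, 1.0 to 1.09 for CCN2, 1.79 to 1.96 for ANKRD1 and 1.54 to 1.59 for AMOTL2. It was 0.42 to 0.47 for YAP1 and 0.07 to 0.19 for WWTR1. Groups that did not overlap are common here: 7 of the 9 tested members had both shNUP210 libraries above both shCon libraries, against 42.9% of all genes.

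**Figure D4:**
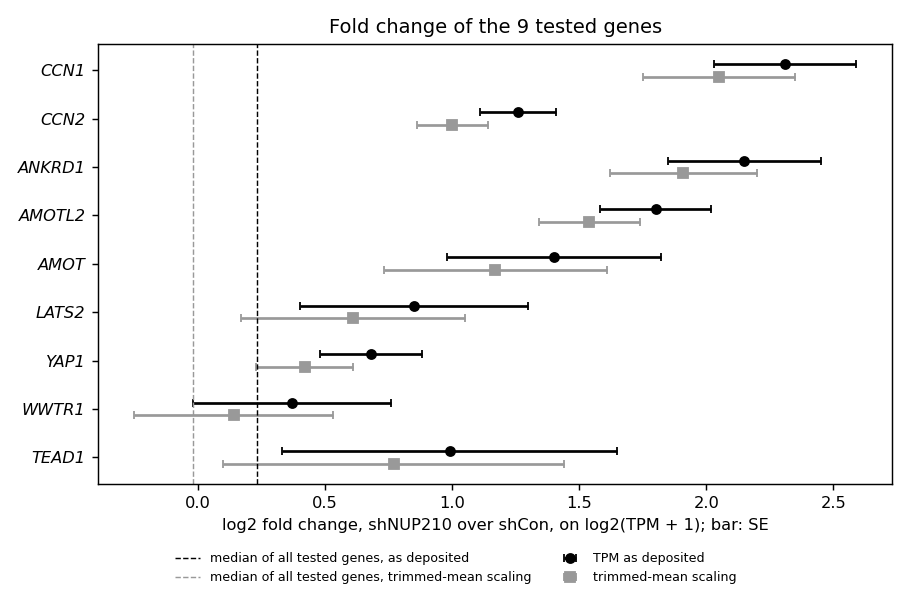
Log2 fold change of shNUP210 over shCon with its SE for the 9 tested genes, in TPM as deposited (black circles) and after trimmed-mean scaling (grey squares), with dashed lines at the median of all tested genes under each. The targets CCN1, ANKRD1, AMOTL2 and CCN2 lie at 1.0 or above under both, and WWTR1 lies close to the median.

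Beyond the 10 members, 8 lists held 74 other genes of the pathway or reported YAP targets. Of these, 68 were listed, 44 could be tested, 3 were called higher and 0 lower (limma). An unadjusted p under 0.05 was found for 15 of the 44, against 24.3% of all genes tested. The 3 called are 6.82% of those tested, against 1.79% of all genes, and 4 of the 44 passed the filter only through shNUP210. Their median log2 fold change was 0.6, and 2 of the 44 were below 0. None of the 3 calls held after trimmed-mean scaling (adjusted p 0.0517 to 0.0825) or with any library left out (0.127 to 0.205).

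Of the upstream kinase cassette, 2 of 10 tested genes rose and 8 did not pass, with a median log2 fold change of 0.75, against 1.79% of all genes called higher. WWC2 passed the filter only through the shNUP210 libraries, where it was high, so its place in this count is a description. WWC2, a relative of the scaffold KIBRA that promotes LATS activity, was at 25.2 and 16.9 TPM in shNUP210 and 3.38 and 4.22 TPM in shCon (log2 fold change 2.18, SE 0.34, limma adjusted p = 0.0432). Its exons share 2581 bases with CLDN22, so part of its reads may belong to that gene. CLDN22 was also higher after knockdown, at 11.48 and 11.55 TPM in shNUP210 and 4.49 and 2.46 TPM in shCon. Its part in the WWC2 difference was not tested. MAP4K4, a kinase that acts on LATS in parallel to the Hippo kinases, was at 94.9 and 118.5 TPM in shNUP210 and 55.3 and 48.6 TPM in shCon (log2 fold change 1.02, SE 0.17, limma adjusted p = 0.0488). TAOK2, WWC1, NF2 and the LATS cofactor MOB1A had log2 fold changes of 0.61, 0.53, 0.51 and 0.09 and were not called. NF2, which encodes the tumour suppressor merlin, was at 21.0 and 24.0 TPM in shNUP210 and 15.7 and 15.3 TPM in shCon.

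Among TEAD cofactors and paralogs none of 4 tested genes was called (limma). None had an unadjusted p under 0.05 either, against 24.3% of all genes tested. VGLL4, which competes with YAP for TEAD, was at 47.2 and 28.9 TPM in shNUP210 and 17.9 and 28.6 TPM in shCon, and TEAD3 and TEAD4 had log2 fold changes of 0.6 and 0.28. The STRIPAK complex, a phosphatase that switches off the Hippo kinases, had 0 of 6 called and 1 at an unadjusted p under 0.05, with log2 fold changes of 0.26, 0.53 and 0.28 for STRN4, STRN3 and SIKE1. Of 12 junction and polarity regulators, 0 were called and 3 had an unadjusted p under 0.05, close to the share over all genes. These 3 include TJP1, which passed the filter only through the shNUP210 libraries (9.55 and 8.81 TPM, against 4.81 and 4.36 TPM in shCon). The count is therefore a description. AJUBA, a LIM protein that restrains LATS, was at 63.0 and 63.0 TPM in shNUP210 and 39.0 and 34.9 TPM in shCon (log2 fold change 0.76, SE 0.16, limma adjusted p = 0.0721). CRB3 and SCRIB had log2 fold changes of 0.25 and -0.13.

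The other 17 genes of a conserved YAP target signature were mostly low in Huh7: 15 were listed, 6 could be tested and 0 were called. Of the 6, 3 had an unadjusted p under 0.05 (limma), against 24.3% of all genes tested. The median log2 fold change over the 6 tested was 1.12. The 3 include IGFBP3, which passed the filter only through the shNUP210 libraries (7.8 and 13.58 TPM, against 2.98 and 1.86 TPM in shCon). This count and this median are therefore a description. GADD45A, a stress-inducible growth arrest gene, was at 32.2 and 34.1 TPM in shNUP210 and 13.7 and 9.41 TPM in shCon (log2 fold change 1.46, SE 0.26, limma adjusted p = 0.0519). CRIM1, a membrane protein that binds BMP ligands, was at 19.2 and 19.8 TPM in shNUP210 and 5.73 and 2.46 TPM in shCon (log2 fold change 2.09, SE 0.41, limma adjusted p = 0.0633). The signature was not uniform. NT5E, the ectonucleotidase CD73, was at 16.9 and 19.1 TPM in shNUP210 and 25.9 and 18.4 TPM in shCon, and ASAP1 was at 13.1 and 10.5 TPM in shNUP210 and 10.1 and 9.99 TPM in shCon.

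Of 8 other reported YAP targets, 6 were tested and 1 was called higher (limma), against 1.79% of all genes tested. An unadjusted p under 0.05 was found for 4 of the 6, against 24.3% of all genes tested. These 4 include FSTL1, which passed the filter only through the shNUP210 libraries (8.01 and 16.16 TPM, against 0.89 and 3.42 TPM in shCon). The count is therefore a description. GADD45B, a relative of GADD45A, was at 22.9 and 24.7 TPM in shNUP210 and 7.41 and 4.74 TPM in shCon (log2 fold change 1.83, SE 0.31, limma adjusted p = 0.0488). FSTL3, THBS1 and the survivin gene BIRC5 had log2 fold changes of 0.95, 0.72 and 0.4 and were not called.

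**Figure D5:**
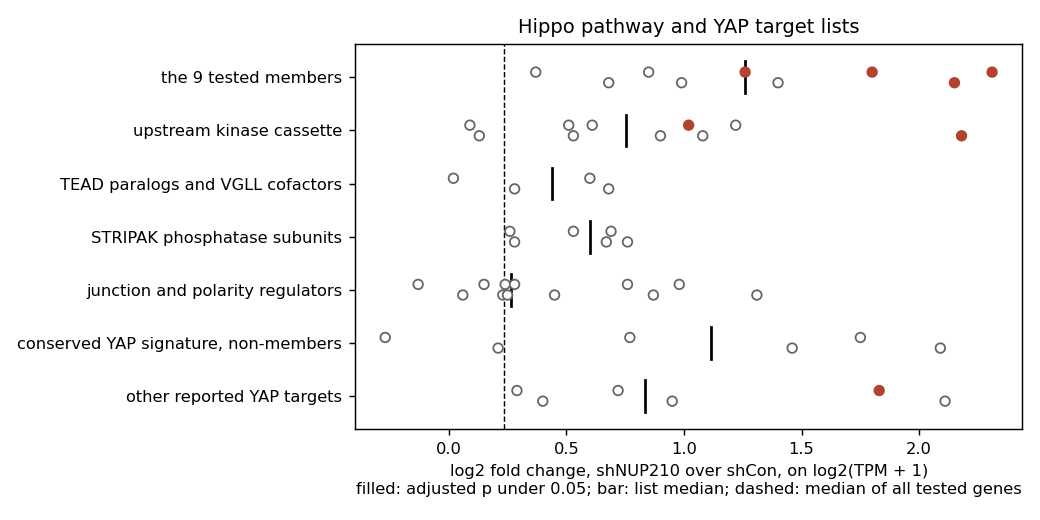
Log2 fold change, shNUP210 over shCon, of each tested gene by list, filled where called, with a bar at each list's median and a dashed line at the median of all tested genes (0.23). The members hold 4 of the 7 filled points and the upstream kinase cassette holds 2, and the junction list has its median (0.26) beside that of all genes.

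The 5 genes whose profile over the 4 libraries was nearest the mean profile of the 4 targets, by Euclidean distance of centred log2(TPM + 1), were TMSB4X, CDKN1C, PRR4, GPC2 and the long noncoding RNA XIST. TMSB4X, which encodes the actin-binding peptide thymosin beta-4, lay at a distance of 0.12 with 532.2 and 504.8 TPM in shNUP210 and 151.9 and 149.1 TPM in shCon. CDKN1C, which encodes a cyclin-dependent kinase inhibitor, lay at 0.14 with 54.9 and 56.6 TPM in shNUP210 and 15.6 and 15.7 TPM in shCon. The targets themselves lay at 0.3 (ANKRD1) to 0.64 (CCN1) from their own mean. With 4 libraries in 2 groups, this distance ranks genes mainly by the size of their difference between the groups.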

How the data were processed

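Per the labels' protocols, RNA from Huh7 cells was isolated using Trizol, and sequencing libraries were built with Illumina's TruSeq RNA reagents. The authors deposited 1 table per library with 1 TPM value per gene for 20226 genes. The unit was read from column totals of 999992.7 to 999997.8. Tools named in the submitters' processing notes are STAR, RSEM, Trimmomatic and DESeq, and the build is hg38. Versions, annotation release and strand setting are not given in the sources used here.

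Libraries were grouped by title. Tables were joined by gene identifier, and 19363 identifiers had a current symbol. The test was limma (version 3.58.1, under R 4.3.3) with a mean-variance trend, for genes reaching 5 TPM in 2 or more libraries. It used log2(TPM + 1), a scale that understates changes of low genes. P-values are two-sided and adjusted over 10140 genes by the Benjamini-Hochberg method. The procedure was tested on simulated data. In shNUP210 and shCon, 0.105% and 0.922% of genes above 0 had equal TPM in both libraries, and all 4 were kept as separate samples. Positions and exon overlaps are from GENCODE release 29 (GRCh38). A permutation test of 2 against 2 cannot reach 0.05 and was not used. The members, the lists, the filter and the scaling were chosen with earlier results of these data known. Genes named from the lists were those called and up to 4 more per list with the highest mean TPM, some of which are not reported here, and genes of like profile were the 5 nearest the targets' mean. Genes that share exon bases with a named gene are named for that overlap. TJP1, IGFBP3 and FSTL1 are named because they passed the filter only through the shNUP210 libraries. Alternatives covered pseudocount, filter, scaling, variance model, replicate block and leaving out each library.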

Additional observations from a re-analysis of the deposited data

How the results depend on the processing

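The count of all genes called, 290, was 57 with a filter of 1 TPM in 2 libraries, 14 with no filter, 63 with the replicate block and 0 without the mean-variance trend (limma, 2290 at an unadjusted p under 0.05), and 4 to 27 with any library left out. The 4 members called became 0 with either looser filter and without the trend, 1 (AMOTL2) with the replicate block, and 0 with any library left out, where 4 to 7 members had an unadjusted p under 0.05. The other settings called 3 or 4 members. The 3 pathway genes called became 0 or 1 in every alternative apart from the robust prior, which called 3. The call of higher against lower genes moved from 181 and 109 to 72 and 259 after trimmed-mean scaling, 74 and 258 after median-ratio scaling, 88 and 234 after upper-quartile scaling and 87 and 116 after quantile normalization. The wider gap between targets and regulators, 1.16, was 0.78 to 1.53 with a library left out and 0.87 to 1.25 with other sets of genes. No member's log2 fold change changed sign. A change of filter, prior, trend or block leaves the fold unchanged by construction, and fits without a library reuse the other libraries, so the kept signs say little. The replicate numbers are not known to pair the libraries: same-numbered libraries' deviations from their group means correlated at 0.023 over 10140 genes. Depth is known only from a rough estimate, by which 14 fragments stand behind each shCon value of ANKRD1.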
